A study of Lupinus albus with 12 samples.

Results

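PAP10 is a purple acid phosphatase, an enzyme with a metal centre that frees phosphate from organic phosphorus compounds. In Arabidopsis, PAP10 is secreted, stays on the root surface and is made in larger amounts when phosphate is scarce. White lupin (Lupinus albus) is a legume known for proteoid roots, clusters of short rootlets that form under phosphorus shortage and release organic acids and acid phosphatases into the soil around them. The PAP10 sequences of white lupin were taken as all sequences whose best hit in the deposited annotation carries the symbol PAP10, and 9 of the 125535 sequences in the expression table do so. All 9 passed the filter of 1 RPKM (read number per length of sequence and per size of library) or more in at least 3 libraries, as did 87081 sequences in all. The members were thus chosen by a name and by a minimum RPKM over the 12 libraries, and the name was selected on the known rise of a PAP10 sequence in deficient roots. The root values below are for that reason a description and carry no test. The sequences LAGI01_21085, LAGI01_49867 and LAGI01_74776 passed in exactly 3 libraries, all of them from deficient roots, and no PAP10 sequence lay below the filter.

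The 12 libraries are poly-A RNA of the variety Ultra, harvested 14 days after emergence, in 4 groups of 3 biological replicates: roots given 1 mM calcium phosphate (sufficient), roots given 1 mM calcium sulfate in its place (deficient), and leaves under each supply. Deficient root samples are labelled as proteoid roots, while sufficient samples are labelled as roots, so supply and root type differ together in the root comparison and cannot be told apart. Genes of light capture and carbon fixation, checked as leaf markers over 40 sequences, summed to 12693.5 to 56618.6 RPKM in leaf libraries and 87.7 to 124.7 RPKM in root libraries. The 27 root marker sequences summed to 47.4 to 157 RPKM in roots and 18.1 to 44.5 RPKM in leaves. Replicate 3 of the deficient leaves was unlike the rest, with 70.91% of its summed RPKM in its 20 largest sequences against 12.51% to 17.98% in the other 5 leaf libraries, so leaf tests and medians are also given without it. Replicate 1 libraries were run 1 per lane, and the others were barcoded and run in pairs.

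The 9 sequences have a single description, a single functional class (acid and other phosphatases, 237 sequences) and the same 5 gene ontology terms, which include acid phosphatase activity and the plant cell wall. No other annotated sequence carried all 5 terms. The description, class and ontology terms did not separate the copies, the pathway, EC and enzyme fields were empty for all 9, and their nucleotide sequences were not used here, so they may be separate genes, isoforms or fragments. Reads that match several of them could have been divided between them by the counting, which makes the level of a single copy uncertain.

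By level the copies fell into 3 patterns, grouped here after their values were seen. A set of 4 copies was near 0 in every group except deficient roots: LAGI01_35427, LAGI01_21085, LAGI01_49867 and LAGI01_74776 (the raised copies). Another set of 4 was well expressed in roots at both supplies and low in leaves: LAGI01_27999, LAGI01_23791, LAGI01_26719 and LAGI01_19447 (the root-high copies). LAGI01_61331 stood apart from both sets and was found in roots and leaves.

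**Figure D1:**
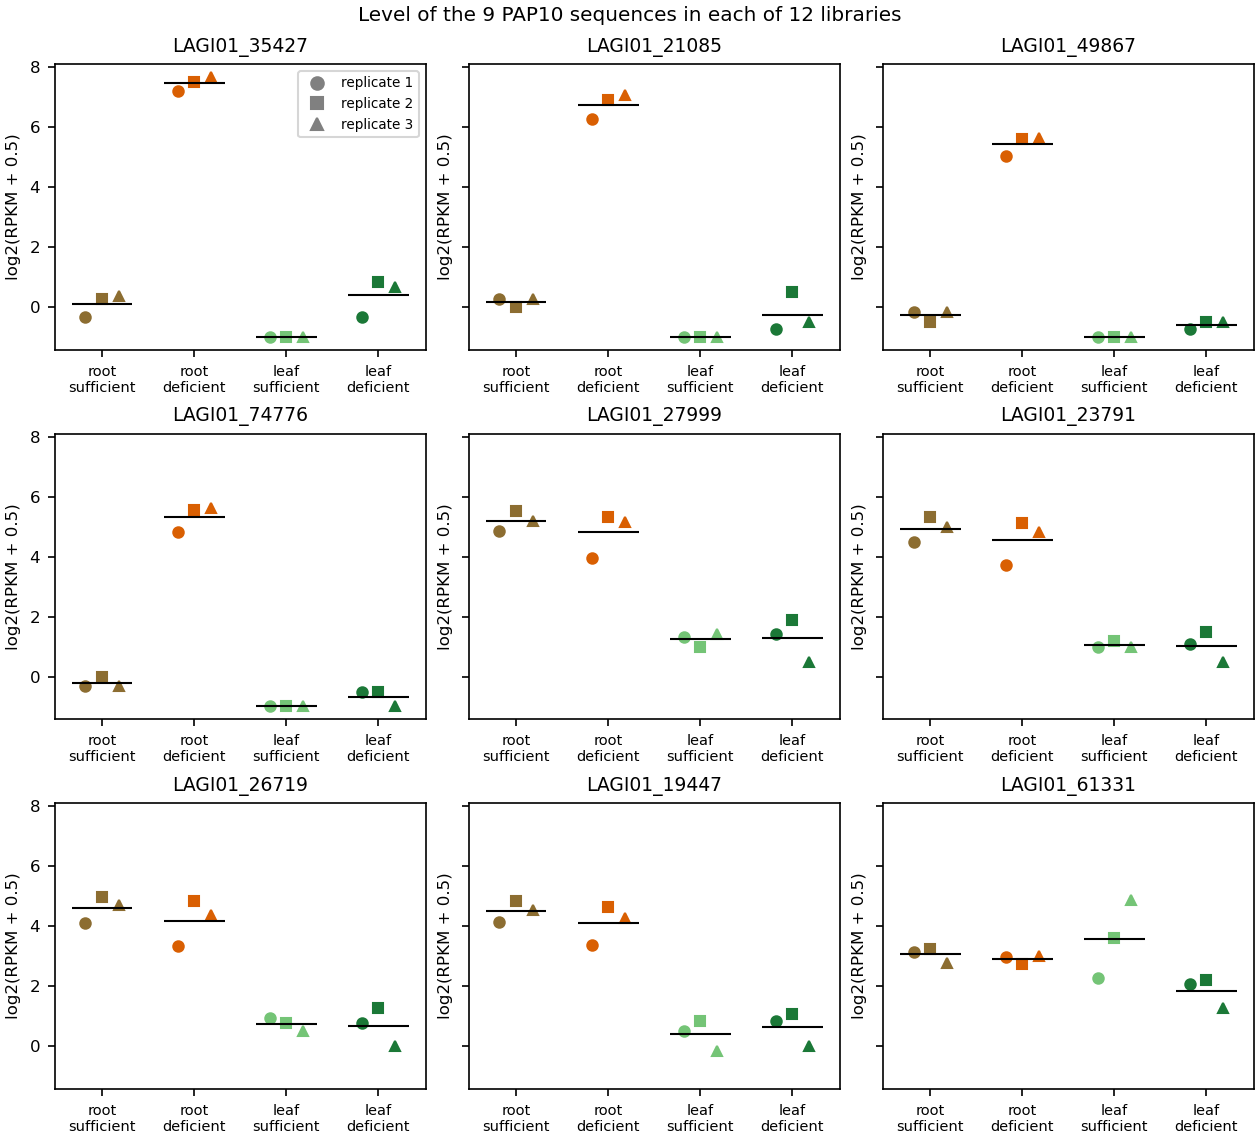
Level of each PAP10 sequence as log2(RPKM + 0.5) on the y axis in the 4 groups on the x axis; each point is a library, its shape the replicate, and the bar is the mean of 3. The first 4 panels are high in deficient roots alone, the next 4 are high in both root groups, and LAGI01_61331 is spread most widely in sufficient leaves.

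Among the raised copies LAGI01_35427 was the highest, at 147.6, 183.1 and 202.8 RPKM in the 3 deficient root libraries and 0.3, 0.7 and 0.8 RPKM in the 3 sufficient ones. The groups lie far apart, and the ratio of their means was 296 (177.83 ± 27.97 over 0.60 ± 0.26 RPKM, SD, n = 3). Its mean ranked 386 of 125535 sequences in deficient roots and 83656 in sufficient roots. LAGI01_21085 stood at 77.7, 118.4 and 132.9 RPKM in deficient and 0.7, 0.5 and 0.7 RPKM in sufficient roots, a ratio of means of 173. LAGI01_49867 stood at 32.6, 48.1 and 49.2 RPKM against 0.4, 0.2 and 0.4 RPKM, a ratio of 130. LAGI01_74776 stood at 27.7, 47.1 and 48.8 RPKM against 0.3, 0.5 and 0.3 RPKM, a ratio of 112. In each of the 4 the deficient library of replicate 1 was the lowest of its group. Because values have 1 decimal, the small denominators make these ratios imprecise.

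On the scale of log2(RPKM + 0.5), which understates the change of low sequences, the differences between deficient and sufficient roots were 7.36 ± 0.36 (SE) for LAGI01_35427, 6.57 ± 0.36 for LAGI01_21085, 5.70 ± 0.30 for LAGI01_49867 and 5.55 ± 0.32 for LAGI01_74776. Limma called these 4 of the 9 copies higher and 0 lower, where 0.245% of all sequences tested were called higher and 0.0345% lower. Since this contrast led to the choice of PAP10, nothing is read from that count. The pseudocount sets part of these sizes, since sufficient roots lie close to 0: with 0.1 they were 8.06, 7.20, 6.66 and 6.45, and with 1 they were 6.81, 6.05, 5.035 and 4.91, in the same order of copies. Between the unbarcoded libraries of replicate 1 the 4 differences were 7.53, 6.03, 5.20 and 5.14, and among the barcoded libraries they were 7.27, 6.85, 5.95 and 5.76, in the same order of copies. In bulk tissue, more cells of a type and more RNA per cell cannot be told apart.

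The raised copies moved in near-constant proportion to each other in deficient roots. LAGI01_21085 stood at 0.526, 0.647 and 0.655 of the level of LAGI01_35427 in replicates 1, 2 and 3. LAGI01_49867 stood at 0.221 to 0.263 of it and LAGI01_74776 at 0.188 to 0.257. Profiles were compared by the root mean square difference of log2(RPKM + 0.5) over the 12 libraries after each was centred on its own mean. LAGI01_49867 and LAGI01_74776 were the closest pair of raised copies by this measure (0.23), and the widest was LAGI01_35427 with LAGI01_74776 (0.90). Between a raised and a root-high copy it was 2.12 to 2.84.

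The root-high copies overlapped between the root groups. LAGI01_27999 stood at 28.2, 45.4 and 36.1 RPKM in sufficient roots and at 15.1, 39.1 and 35.5 RPKM in deficient roots, for replicates 1 to 3. Its difference was -0.37 ± 0.45 on the log2 scale. LAGI01_23791 went from 30.7 ± 8.60 to 24.8 ± 11.0 RPKM (SD, n = 3; log2 difference -0.38 ± 0.43 SE). LAGI01_26719 went from 24.5 ± 7.11 to 19.3 ± 9.14 RPKM (-0.42 ± 0.44) and LAGI01_19447 from 22.6 ± 5.40 to 17.6 ± 7.32 RPKM (-0.41 ± 0.43). None of the 4 was called by limma in roots. In same-numbered libraries, however, the deficient one was lower in 3 of 3 pairs for each of the 4 copies. How many of all sequences did so was not counted. The 4 copies kept nearly fixed ratios (below) and cannot be taken as separate observations, so nothing is read from these pairs. Without the deficient root library of replicate 1 the differences were near 0, at 0.053 (LAGI01_27999), 0.037 (LAGI01_23791), -0.002 (LAGI01_26719) and -0.049 (LAGI01_19447). The size of the gap differed between sequencing formats: for LAGI01_27999 it was -0.88 between the replicate 1 libraries and -0.12 among the barcoded ones. The lowest root-high values were in replicate 1 at each supply, the libraries that also had the highest root marker sums (108.1 and 157 RPKM against 47.4 to 71 RPKM in the other 4 root libraries). The part of this in the result was not tested.

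These 4 copies kept nearly fixed ratios in the 6 root libraries. LAGI01_23791 stood at 0.777 to 0.872 of LAGI01_27999, LAGI01_26719 at 0.569 to 0.714 and LAGI01_19447 at 0.530 to 0.649. Their profiles differed by a root mean square of 0.12 to 0.32, less than any pair of raised copies except LAGI01_49867 with LAGI01_74776.

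**Figure D2:**
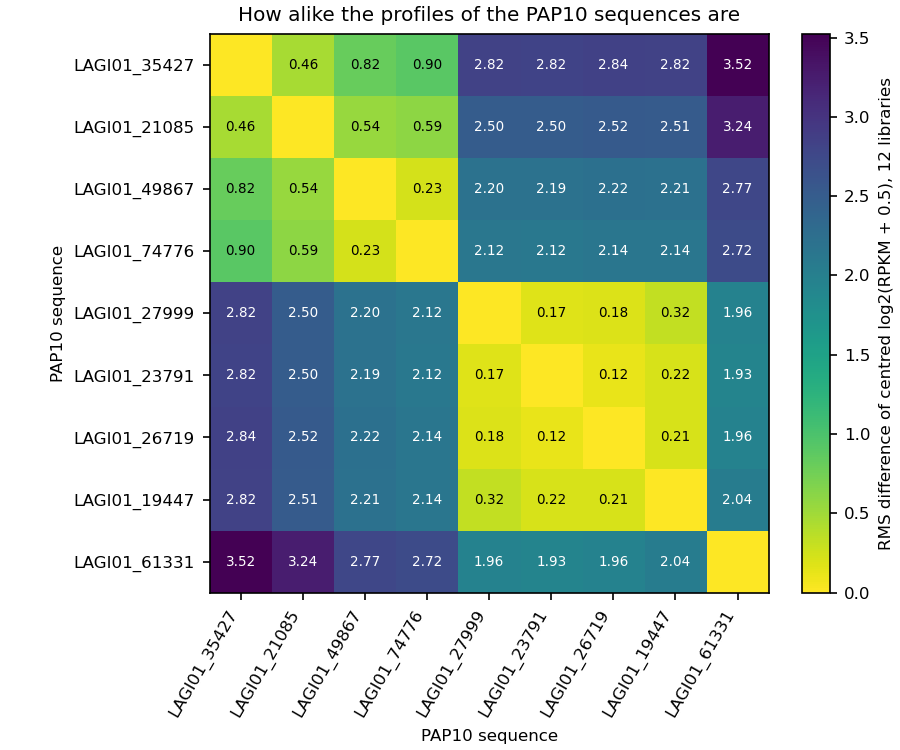
Each cell is the root mean square difference between 2 PAP10 sequences (x and y axes) in log2(RPKM + 0.5), centred on each sequence's mean over 12 libraries; light colours are alike. The raised copies (upper left) and the root-high copies (middle) form blocks, and LAGI01_61331 is at least 1.93 from every other copy.

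LAGI01_61331 did not separate the root groups: it stood at 8.3, 9.0 and 6.4 RPKM with sufficient and 7.4, 6.1 and 7.5 RPKM with deficient phosphorus, a log2 difference of -0.16 ± 0.52 (SE). That SE rests on a spread shared by the 4 groups, among them sufficient leaves at 4.3, 11.6 and 28.9 RPKM, and does not measure the roots alone. LAGI01_61331 was also the only copy at 1 RPKM or more in all 12 libraries.

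**Figure D3:**
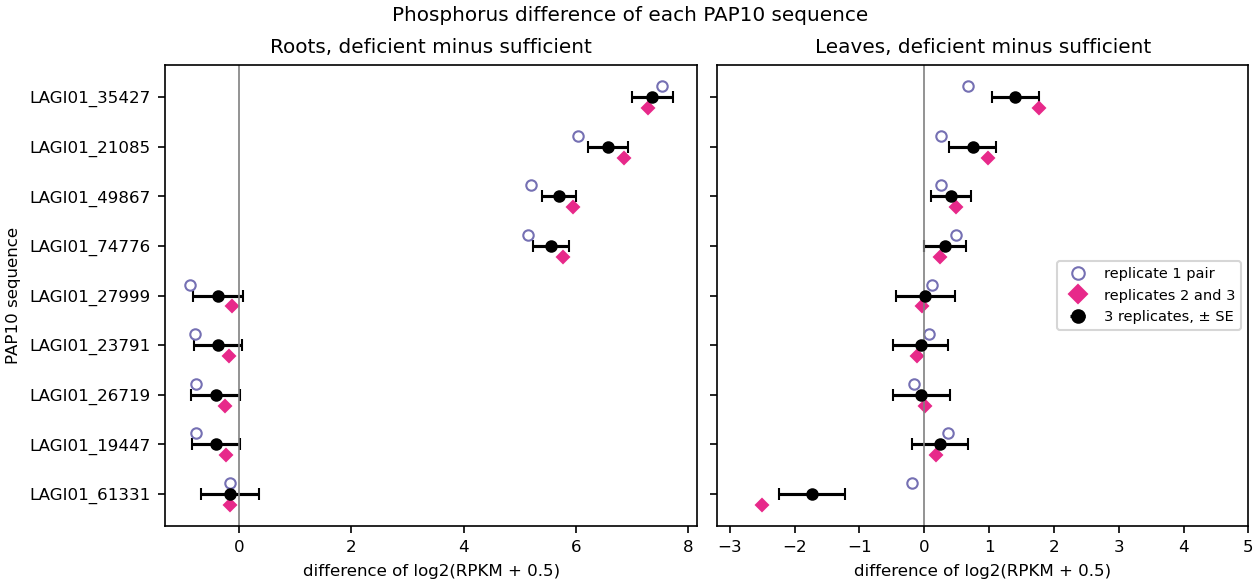
Difference in log2(RPKM + 0.5), deficient minus sufficient (x axis), for each PAP10 sequence (y axis) in roots (left) and leaves (right); black points are the fit to 3 replicates with its SE, open circles the replicate 1 libraries and diamonds replicates 2 and 3. In roots the 4 raised copies lie above 5 and the others below 0; in leaves LAGI01_35427 is highest and LAGI01_61331 lowest, with a gap between the sequencing formats.

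The leaf comparison was tested, since it played no part in the choice. The raised copies were listed at 0.0 in all 3 sufficient leaf libraries. In deficient leaves LAGI01_35427 stood at 0.3, 1.3 and 1.1 RPKM, LAGI01_21085 at 0.1, 0.9 and 0.2 RPKM, LAGI01_49867 at 0.1, 0.2 and 0.2 RPKM and LAGI01_74776 at 0.2, 0.2 and 0.0 RPKM. The first 3 of these were above 0.0 in every deficient leaf library. Deficient leaf values all above the sufficient ones were found for 0.722% of all sequences tested. No fold is given against a group listed at 0, and most of these levels are close to the last printed decimal. LAGI01_35427 differed by 1.40 ± 0.36 (SE) on the log2(RPKM + 0.5) scale, higher in 3 of 3 libraries, and did not pass (limma, Benjamini-Hochberg adjusted p = 0.243). With a pseudocount of 0.1 the difference was 3.13 (limma adjusted p = 0.0736) and with 1 it was 0.88 (0.42), so its size rests on the pseudocount. The limma adjusted p was 0.670 without the deficient leaf library of replicate 3 (difference 1.26), and 0.0943 with the replicate number as a block. Without the deficient leaf library of replicate 1 it was 0.0414 (difference 1.76), and among barcoded libraries 0.0182. The barcoded leaf libraries also differed in clock genes between the supplies (below), and the part of this was not tested. The other raised copies had limma adjusted p of 0.652 (LAGI01_21085), 0.771 (LAGI01_49867) and 0.835 (LAGI01_74776), and of 0.808, 0.921 and 0.904 without the deficient leaf library of replicate 3. Their differences of 0.75, 0.41 and 0.32 likewise moved with the pseudocount, to 1.97, 1.39 and 1.06 with 0.1 and to 0.44, 0.22 and 0.175 with 1.

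LAGI01_61331 was the copy with the highest leaf level and the widest spread there. It stood at 4.3, 11.6 and 28.9 RPKM in sufficient leaves and at 3.7, 4.1 and 1.9 RPKM in deficient leaves. All deficient values lie below all sufficient ones, which held for 4.45% of all sequences tested. The difference was -1.73 ± 0.52 (SE), lower in 3 of 3 replicates, and did not pass (limma adjusted p = 0.324). Without the sufficient leaf library of replicate 1 the difference was -2.39 (limma adjusted p = 0.0144), and among barcoded libraries -2.51 (limma adjusted p = 0.00194). It was -0.19 between the replicate 1 libraries, and -1.44 without the deficient leaf library of replicate 3 (limma adjusted p = 0.804). Clock genes moved with these libraries: the mean log2 level of 35 morning (LHY, CCA1) minus 45 evening (TOC1, GI, APRR5) sequences came to 1.60, -2.32 and -2.28 for the sufficient leaf libraries, against 3.19, 2.13 and 1.55 for the deficient ones. In roots the same measure came to -0.15, -1.92 and -2.06 for the sufficient libraries, against 0.87, -0.58 and -0.82 for the deficient ones. The part of the clock genes in the level of LAGI01_61331, in any other leaf difference or leaf call, or in the root differences was not tested.

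The root-high copies were low in leaves at both supplies, at 0.4 to 2.2 RPKM with sufficient and 0.5 to 3.2 RPKM with deficient phosphorus, and their leaf differences ran from -0.05 to 0.25 with limma adjusted p of 0.929 or more. Without the deficient leaf library of replicate 3 they ran from 0.21 to 0.565, with limma adjusted p of 0.932 or more. In all, 0 of 9 copies were called in leaves by limma (2 at an unadjusted p below 0.05), where 0.0276% of all sequences were called. The median leaf difference was 0.25 over the 9 copies and -0.24 over all sequences tested. The raised copies were listed at 0.0 in sufficient leaves and could not be lower in deficient ones, so nothing is read from the gap between the medians. Without the deficient leaf library of replicate 3 these medians were 0.41 and 0.06, with 0 sequences called of the 87081 (limma, 5119 at an unadjusted p below 0.05). With the replicate block 158 sequences were called in leaves in place of 24, and still 0 PAP10 copies.

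Roots and leaves were also compared with sufficient phosphorus. The 4 root-high copies were higher in roots, LAGI01_27999 at 36.6 ± 8.61 against 1.90 ± 0.36 RPKM (SD, n = 3; log2 difference 3.93 ± 0.45 SE, limma adjusted p = 2.27e-06), and the other 3 at differences of 3.86 to 4.11. Among the raised copies LAGI01_21085 and LAGI01_35427 were called higher in roots (differences 1.18 and 1.11, limma adjusted p of 0.0137 and 0.0207) and LAGI01_49867 and LAGI01_74776 were not (0.73 and 0.79, limma adjusted p of 0.0635 and 0.0598). These rest on root levels of 0.2 to 0.8 RPKM against leaves listed at 0.0. Their calls changed with the pseudocount, the scaling, the sequencing format and single libraries. Of 22 alternatives each, LAGI01_21085 was called in 19, LAGI01_35427 in 15, LAGI01_49867 in 4 and LAGI01_74776 in 5. LAGI01_35427 was lost with median-of-ratios scaling (limma adjusted p = 0.057) and kept with quantile scaling (limma adjusted p = 0.0491). LAGI01_21085 was lost among barcoded libraries (limma adjusted p = 0.053). With a pseudocount of 0.1 all 4 were called, at differences of 2.08 to 2.86, and with 1 none was, at 0.41 to 0.705 (limma adjusted p of 0.0659 to 0.194). The call of LAGI01_21085 was lost without sufficient root replicate 3 (limma adjusted p = 0.053), and that of LAGI01_35427 without sufficient root replicate 2 or 3 or any 1 sufficient leaf library (limma adjusted p of 0.0509 to 0.0983). LAGI01_49867 and LAGI01_74776 passed without deficient leaf replicate 2 or 3, and LAGI01_74776 also without deficient root replicate 1 (limma adjusted p of 0.0164 to 0.049). LAGI01_61331 did not differ detectably (difference -0.52 ± 0.52, limma adjusted p = 0.449). Thus 6 of 9 copies were called higher in roots, where 24.1% of all sequences tested were. The 4 root-high copies among them kept nearly fixed ratios and cannot be taken as separate observations, so nothing is read from that count. LAGI01_21085, among the 6, passed the filter through deficient roots alone. LAGI01_35427, also among the 6, reached 1 RPKM only in the 3 deficient root libraries and 2 deficient leaf libraries. It too would not have passed without deficient roots. With deficient phosphorus, given as a description, the root minus leaf differences were 6.01 to 7.07 for the raised copies, 3.45 to 3.55 for the root-high copies and 1.06 ± 0.52 for LAGI01_61331. Without the deficient leaf library of replicate 3 they were 5.85 to 7.20, 3.13 to 3.27 and 0.765. Limma called 8 of 9 higher in roots at this supply, where 29% of all sequences were, and nothing is read from that count because it uses the deficient root libraries.

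The order of the groups by level followed the patterns. For LAGI01_35427 and LAGI01_21085 deficient roots came first, sufficient roots and deficient leaves overlapped, and sufficient leaves came last. For the root-high copies the root groups overlapped each other and lay above the leaf groups, which also overlapped. For LAGI01_61331 sufficient leaves had the highest mean but overlapped both root groups, and deficient leaves were the lowest.

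Summed over the 9 copies, PAP10 stood at 94.2, 154.4 and 123.9 RPKM in sufficient roots and 340.2, 528.2 and 543.3 RPKM in deficient roots. The raised copies made up 1.60% ± 0.32 (SD, n = 3) of this sum in sufficient and 79.6% ± 4.43 in deficient roots. The sum differed by 1.92 ± 0.49 (SE) on the log2 scale, less than any raised copy, since the root-high copies make up nearly all of it in sufficient roots. In leaves the sum was 10.1, 17.4 and 33.9 RPKM with sufficient and 10.7, 15.7 and 6.2 RPKM with deficient phosphorus, and the groups overlapped (difference -0.81 ± 0.49, limma adjusted p = 0.725). Without the deficient leaf library of replicate 3 the difference was -0.47 (limma adjusted p = 0.949), an alternative chosen after the data were seen.

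The table holds 49 other sequences described as purple acid phosphatases. Of the summed RPKM of PAP10 and these 49, PAP10 made up 24.2% ± 5.53 (SD, n = 3) in sufficient roots. In deficient roots it made up 49.6% ± 11.4, and the groups do not overlap (17.82% to 28.01% against 36.63% to 58.16%). Because PAP10 was chosen for a rise in deficient roots, nothing is read from this separation of the shares. Sequences of the family with another description are not in this sum, among them PAP17 (LAGI01_79787, below). In leaves the share was 6.90% ± 3.89 with sufficient and 3.28% ± 0.32 with deficient phosphorus, and the deficient mean was 3.115% without replicate 3 (n = 2). The other 49 summed to 341.6 to 434.5 RPKM in sufficient roots and 390.9 to 588.6 RPKM in deficient roots, and overlapped.

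**Figure D4:**
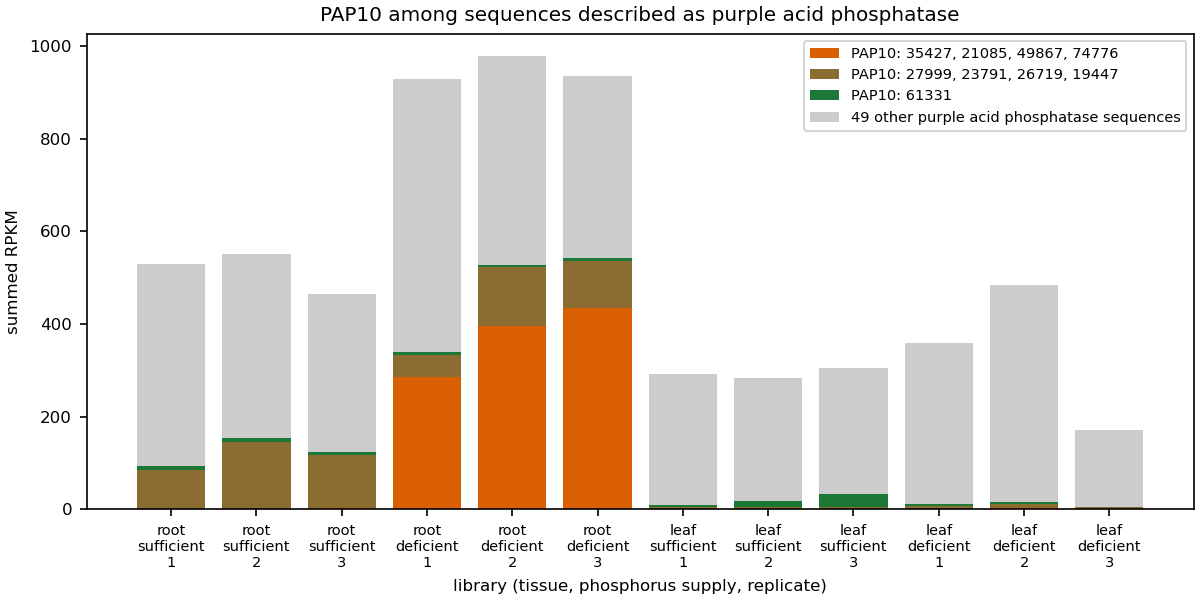
Stacked bars of summed RPKM (y axis) over sequences described as purple acid phosphatase in each library (x axis), split into 3 patterns of PAP10 sequences and the 49 others. The raised copies are visible in the 3 deficient root libraries, where PAP10 makes up 36.63% to 58.16% of the bar.

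Other genes of phosphorus supply were counted by the symbols of their best hits. Over all sequences 0.245% were called higher and 0.0345% lower in deficient roots. The lists were chosen with earlier results of these data known, and the sequences named are the largest of their calls. Nothing is therefore read from a list count above those shares. Of 93 tested sequences with another PAP symbol, 3 were higher and 0 lower in deficient roots (limma, median log2 difference -0.07 against 0.00 over all sequences). That list also takes in phytochrome-related and lipid phosphatase genes that share the symbol, and of the 46 tested sequences described as purple acid phosphatases 2 were higher. PAP12 (LAGI01_29803), a secreted phosphatase that in Arabidopsis is closely related to PAP10, stood at 2.8, 0.6 and 0.7 RPKM in sufficient and 37.2, 13.2 and 12.4 RPKM in deficient roots (log2 difference 3.53 ± 0.56 SE, limma adjusted p = 0.00794). LPP2 (LAGI01_76393), which acts on lipid phosphates, rose from 1.63 ± 0.51 to 7.93 ± 1.05 RPKM (SD, n = 3, limma adjusted p = 0.00622). Of 99 phosphate signalling sequences 10 were higher and 8 lower (median -0.03), the SPX proteins that sense phosphate status among the higher ones. Over all sequences tested 30 were called lower. The 2 named next had the largest absolute differences, so the 8 lower ones are not named. SPX3 (LAGI01_46560) stood at 0.0, 0.1 and 0.1 RPKM in sufficient and 7.6, 5.4 and 8.1 RPKM in deficient roots (limma adjusted p = 0.0093), and SPX2 (LAGI01_46243) differed by 3.44 ± 0.56 (limma adjusted p = 0.00857). Of 43 phosphate transporters 3 were higher and 0 lower (median -0.05). Of 59 phosphorus recycling sequences 2 were higher and 0 lower, with a median of 1.24: the galactolipid synthase MGD2 (LAGI01_25059), at 0.5, 0.8 and 0.8 RPKM against 17.2, 7.8 and 10.2 RPKM (limma adjusted p = 0.0284), and the phosphodiesterase SRG3 (LAGI01_75880), at 0.20 ± 0.17 against 3.27 ± 0.32 RPKM (limma adjusted p = 0.00637). Leaving out a single library in turn, the call of MGD2 was kept in 5 of 12 fits, lost without any 1 of the 6 root libraries or deficient leaf replicate 3. PAP12 was lost without sufficient root replicate 2 or 3, LPP2 without replicate 3 of either root group, SPX3 without deficient leaf replicate 3 and SPX2 without sufficient root replicate 2 (limma adjusted p up to 0.0685), and SRG3 was kept in all 12.

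In leaves, where 0.0276% of all sequences were called, 1 sequence of these lists was called, PAP17 (LAGI01_79787), a starvation-induced phosphatase in Arabidopsis, at 1.1, 1.2 and 0.4 RPKM with sufficient and 5.1, 30.0 and 9.8 RPKM with deficient phosphorus (limma adjusted p = 0.0449). The call was lost in 9 of the 12 fits that left out a single library (limma adjusted p up to 0.422), and kept without deficient root replicate 1, sufficient leaf replicate 1 or deficient leaf replicate 1. In those 9 fits, which include the one without the deficient leaf library of replicate 3, no sequence of the lists was called in leaves. With the replicate block 3 sequences of the lists were called. The leaf medians were 0.64 for recycling, 0.04 for other PAP symbols, 0.00 for transporters and -0.07 for signalling, and without the deficient leaf library of replicate 3 they were 0.98, 0.28, 0.24 and 0.22.

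Sequences with a profile like that of LAGI01_35427 over the 12 libraries were ranked by the same root mean square difference. Of the 7 closest, 3 were the other raised copies and 4 had no gene symbol. The closest sequence with another symbol was the phosphate transporter PHT5 (LAGI01_79525, 1.16), at 102.6, 68.1 and 90.2 RPKM in deficient roots, 0.9, 4.5 and 2.8 RPKM in sufficient roots and 0.0 in all leaf libraries. Next came the citrate exporter FRD3 (LAGI01_85917, 1.30), at 36.5, 27.8 and 31.3 RPKM in deficient and 0.9, 1.7 and 2.0 RPKM in sufficient roots. They were followed by the transcription factor BHLH038 (LAGI01_51470, 1.44), which in Arabidopsis takes part in iron uptake, the cytochrome P450 CYP76C7 (LAGI01_30950, 1.498), the potassium transporter ATKT1 (LAGI01_10113, 1.55) and the multicopper oxidase LPR1 (LAGI01_52976, 1.60). LPR1 reached 158.7, 223.3 and 292.5 RPKM in deficient roots, a level like that of LAGI01_35427, but also stood at 5.9, 10.1 and 11.8 RPKM in sufficient roots, where the PAP10 copy was at 0.3 to 0.8 RPKM. This ranking uses the root contrast and is a description.

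**Figure D5:**
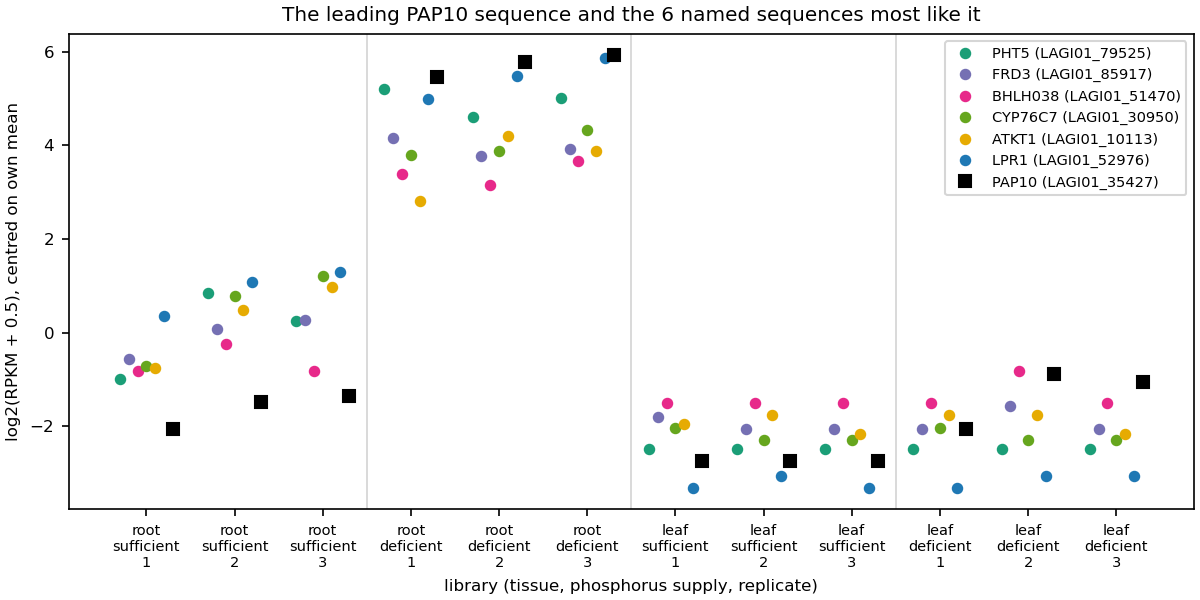
Log2(RPKM + 0.5) of each sequence, centred on its own mean over the 12 libraries (y axis), by library (x axis), for PAP10 LAGI01_35427 (black squares) and the 6 named sequences most like it (coloured circles). All are highest in the 3 deficient root libraries, and PAP10 lies below the other 6 in sufficient roots.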

How the data were processed

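The deposited table holds 1 value per sequence and library for 12 libraries, plus 2 empty columns. The values were taken as RPKM made by the authors, a unit that the deposited files do not name. They have 1 decimal, so 0.0 may stand for a level under 0.05 RPKM, and read depth could not be recovered. Bowtie is named per the submitters' processing notes, and 76-cycle single reads per the labels' protocols. The deposited annotation, text and other fields per the file headers, gave all names. How multiply matching reads were counted is not given in the sources used here.

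The filter kept 87081 sequences that reached 1 RPKM in 3 or more libraries. Limma 3.58.1 (R 4.3.3, intensity trend) was fitted to log2(RPKM + 0.5) over 4 group means, with Benjamini-Hochberg adjustment over all sequences and a call below 0.05. Each SE thus rests on a spread shared by the 4 groups. Tables and figures used Python 3.11.15, numpy 2.4.6, pandas 2.3.3 and matplotlib 3.10.9. The procedure was also run on simulated data, and nothing about the present data is read from that run. Members and lists were chosen with earlier results of these data known. Named sequences are all PAP10 sequences, the 6 symbols most like the highest copy, and up to 2 called sequences per list and tissue with the largest difference. The clock gene lists were added after the data were seen. Deviations of same-numbered libraries from their group means correlated at 0.399 to 0.751 in roots and 0.126 to 0.237 in leaves. Between roots and leaves of the same supply they correlated at -0.223 to 0.34. Replicate 1 also differs in sequencing format, so these correlations cannot tell pairing from format. Counts of same-numbered pairs take the numbers as pairs, while the main fit does not. Alternatives changed the pseudocount, filter, scaling, block, trend, libraries and summing of copies.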

Additional observations from a re-analysis of the deposited data

Results flagged for a closer look

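LAGI01_19447 is listed because its same-numbered libraries moved in opposite directions in the tissues. The deficient library was lower in 3 of 3 pairs in roots and higher in 3 of 3 pairs in leaves. Among the other root-high copies, LAGI01_27999 and LAGI01_23791 were higher in 2 of 3 leaf pairs and LAGI01_26719 in 1 of 3. How many of all sequences moved in opposite directions was not counted, so nothing is read from these pairs. The root difference of LAGI01_19447 minus its leaf difference was -0.66 on the log2(RPKM + 0.5) scale, and this difference was not tested. Without the deficient root library of replicate 1 its root difference was -0.049, and without the deficient leaf library of replicate 3 its leaf difference was 0.565. In leaves it stood at 0.9, 1.3 and 0.4 RPKM with sufficient and 1.3, 1.6 and 0.5 RPKM with deficient phosphorus.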

How the results depend on the processing

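In roots, where PAP10 was chosen and nothing is read from its calls, 0 were called with the 9 copies summed, against 4. Without a single library, 0 to 1 PAP10 copies were called in leaves, 4 to 8 higher in roots than leaves with sufficient phosphorus, and 8 with deficient phosphorus; summing gave 1 in each of the last 2. Barcoded libraries alone gave 2 in leaves. Root calls over all sequences were 106 with a pseudocount of 0.1, 366 with 1, 145 with the filter of 5 RPKM, 418 with median-of-ratios and 433 with quantile scaling, 442 among barcoded libraries, 58 with only the libraries compared, and 113 to 347 without a single library. Leaf calls over all sequences, 24 as reported, were 3 with a pseudocount of 0.1 or with no filter, 5 with the filter of 5, 53 and 52 with the scalings, 46 without trend, 158 with the replicate block, 5215 among barcoded libraries, 0 with only the libraries compared and 0 to 1487 without a single library (1487 without sufficient and 543 without deficient replicate 1, 0 without deficient replicate 3). Tissue calls were 20823 with the filter of 5, and 29419 to 43486 without a single library. List calls in roots were 3 with only the libraries compared and 13 to 38 without a single library, against 26; in leaves they were 0 with either other pseudocount, either other filter or only the libraries compared, 3 with median-of-ratios scaling, 3 with the block, 27 among barcoded libraries and 0 to 11 without a single library, against 1. The block changed no PAP10 call. The pseudocount moved the differences of the raised copies in every contrast. Uncalled root differences changed sign without deficient root replicate 1 for LAGI01_27999 (0.053) and LAGI01_23791 (0.037). Uncalled leaf differences near 0 changed sign: LAGI01_23791 to 0.175 and 0.22 with median-of-ratios and quantile scaling, and LAGI01_26719 to 0.13 and 0.148, and to 0.006 among barcoded libraries. LAGI01_27999 went to -0.009 with a pseudocount of 0.1 and -0.03 among barcoded libraries. Without a single library these ran from -0.289 to 0.211, -0.343 to 0.289 and -0.292 to 0.409, that of LAGI01_19447 from -0.027 to 0.565, and the tissue difference of LAGI01_61331 from -1.18 to 0.127. The scalings raised the median leaf difference of all sequences by 0.21 and 0.26. Of the 6 symbols most like LAGI01_35427, 5 were shared with either other pseudocount. The cause of these changes was not tested. Unknown depth and 1-decimal values limit what can be said of copies under 1 RPKM.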
